A study of Mus musculus with 12 samples.

Results

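The 9 genes described here encode growth factors of blood vessels and epithelium and the receptors of the platelet-derived growth factors. They are the vascular endothelial growth factors Vegfa, Vegfc and Vegfd, the angiopoietin Angpt1, hepatocyte growth factor Hgf, the fibroblast growth factors Fgf2 and Fgf7, and the receptors Pdgfra and Pdgfrb. They were chosen by symbol as a set of growth factors, with earlier results of these data known. The title given to the set also speaks of neurotrophic factors, but no neurotrophin is among the 9, and neurotrophic ligands are given with the related genes. All 9 symbols were found among the 56941 genes of the count table, and all 9 were among the 14810 genes that passed the filter on low counts. The Ensembl identifiers are ENSMUSG00000023951 for Vegfa, ENSMUSG00000031520 for Vegfc, ENSMUSG00000031380 for Vegfd, ENSMUSG00000022309 for Angpt1, ENSMUSG00000028864 for Hgf, ENSMUSG00000037225 for Fgf2, ENSMUSG00000027208 for Fgf7, ENSMUSG00000029231 for Pdgfra and ENSMUSG00000024620 for Pdgfrb.

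The study asked how type 2 cytokines change cultured fibroblasts that are, or are not, exposed to other inflammatory cytokines. Bulk RNA-seq was performed on wild-type 3T3-L1 fibroblasts, a line from mouse embryos that can be driven to form adipocytes, with 3 libraries in each of 4 conditions. Control cells received vehicle (their library names read untreated), IL-4/13 cells received 50 ng/mL of IL-4 with 50 ng/mL of IL-13, Inf cells received 20 ng/mL of TNF-α with 50 ng/mL of IL-17A and 0.5 ng/mL of IL-1β, and IL-4/13 + Inf cells received all 5 cytokines. Each treatment lasted 24 hours. The line is a single established population, and the labels do not say whether the 3 libraries of a condition came from separate cultures, so the p-values measure the spread between these libraries, which may be technical.

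VEGF-A drives the sprouting of blood vessels through the receptor VEGFR2, whereas VEGF-C and VEGF-D act mainly through VEGFR3 on lymphatic vessels. Angiopoietin-1 activates the endothelial receptor TIE2 and stabilises vessels, and fibroblasts and mural cells are among its sources. HGF signals through MET and FGF7, also called keratinocyte growth factor, through an epithelial form of FGFR2, so both carry messages from stromal cells to epithelium, while FGF2 acts on many cell types including the fibroblasts that make it. PDGFRα and PDGFRβ are receptor tyrosine kinases by which fibroblasts and mural cells respond to platelet-derived growth factors, and in skin Pdgfra is widely used to mark fibroblasts.

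Depth ranged from 13446005 to 20775769 counts per library, and Inf replicate 3 stood apart from the other Inf libraries, with a mean chi-square per gene of 8.58 and 8.21 against them and 2.27 to 4.64 in the other replicate pairs. Of 10 fibroblast markers, all 10 passed the filter, led by Col1a2. Their summed level was 13252 to 16000 CPM (counts scaled to the effective library size) in control, 11247 to 12072 with IL-4/13, 11124 to 12570 with Inf and 9668 to 10097 with IL-4/13 + Inf. The 10 endothelial markers summed to 1.49 to 3.46 CPM with Tie1, Emcn and Cldn5 at 3 counts or fewer in every library, the 10 macrophage markers summed to 5.83 to 10.1 CPM, and the 8 adipocyte markers, of which 2 were tested, summed to 67.3 to 91.4 CPM, led by Lpl at a mean of 64.1 CPM, with Adipoq, Plin1, Cidec, Lep and Cfd at 3 counts or fewer. The adipocyte sum was 90.2 to 91.4 CPM in control, 84.2 to 86.6 CPM with IL-4/13, 85.1 to 89.1 CPM with Inf and 67.3 to 73.8 CPM with IL-4/13 + Inf. Leaving out Inf replicate 3 added Angpt1 to the genes called down for Inf against control and changed no other call of the 9 genes. The part of the marker levels in the results was not tested. In bulk samples, fewer cells that express a gene and less RNA per cell cannot be told apart.

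The VEGF ligands are shown first by their promoters, which differ in composition. Of the 3 family members only Vegfc passed a call in these cells, and a link between promoter composition and response was not tested. Of 8 members looked up in the RefSeq table of promoters (GRCm38.p6), 7 had an entry. The 250 bases before the start are printed, 5′ to 3′ on the gene's strand, with capitals marking a match to 1 of 6 motifs searched on both strands. The Vegfa window lies at chr17:46032378-46032627 on the minus strand and is the one further upstream of 2 listed starts, the Vegfc window at chr8:54077282-54077531 on the plus strand, and the Vegfd window at chrX:164373272-164373521 on the plus strand.
Vegfa: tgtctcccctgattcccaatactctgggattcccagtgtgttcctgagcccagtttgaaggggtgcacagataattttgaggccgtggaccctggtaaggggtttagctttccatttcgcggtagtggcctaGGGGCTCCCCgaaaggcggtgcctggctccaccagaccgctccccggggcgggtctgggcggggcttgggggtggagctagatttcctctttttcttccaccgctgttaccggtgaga
Vegfc: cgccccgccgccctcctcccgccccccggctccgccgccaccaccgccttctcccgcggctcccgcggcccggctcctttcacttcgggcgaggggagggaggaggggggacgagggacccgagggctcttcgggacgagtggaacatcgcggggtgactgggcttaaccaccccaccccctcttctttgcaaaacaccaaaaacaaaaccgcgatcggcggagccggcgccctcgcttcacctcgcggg
Vegfd: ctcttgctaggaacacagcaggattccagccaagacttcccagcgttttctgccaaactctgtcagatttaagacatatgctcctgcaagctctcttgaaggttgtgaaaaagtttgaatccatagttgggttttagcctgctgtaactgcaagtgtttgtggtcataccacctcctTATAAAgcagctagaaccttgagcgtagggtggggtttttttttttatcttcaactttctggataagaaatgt
G and C made up 59.2% of the Vegfa window, 71.6% of the Vegfc window and 42.4% of the Vegfd window, beside a median of 52.4% over 32851 promoter windows of the same length. The Vegfc window held 30 CpG dinucleotides, the Vegfa window 11 and the Vegfd window 2. The capitals mark a κB consensus match 118 bases before the Vegfa start and a TATAAA match 73 bases before the Vegfd start, and the Vegfc window held no match to any of the 6 motifs.

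The motifs were the STAT motifs TTCNNNNGAA, found in 5.85% of all windows, and TTCNNNGAA, found in 7.02%, the κB consensus in 7.25%, the AP-1 motif TGACTCA or TGAGTCA in 4.46%, the hypoxia response core ACGTG or GCGTG in 38.6%, and TATAAA in 12.4%. The windows of Fgf2 and Fgf7 and the first of 2 windows of Hgf each held the hypoxia core, as did the second window of Vegfa. That Vegfa window (chr17:46025164-46025413, minus strand) lies downstream of the first start, inside the gene. Its matches are therefore not upstream of transcripts from the first start. The window of Pdgfra and the second window of Hgf held none of the 6. A match describes the letters of a window and shows no binding, and the lack of one says only that these letters are not there.

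Across the 9 genes, Inf raised 5, namely Vegfc, Hgf, Fgf7, Pdgfra and Pdgfrb, by 1.79- to 2.59-fold. IL-4/13 alone raised Vegfc and Fgf7 and lowered Angpt1, Hgf and Pdgfrb. When IL-4/13 was added to Inf, Vegfc rose further, and Angpt1, Fgf2, Pdgfra and Pdgfrb fell. Vegfa and Vegfd passed the call in no comparison. A gene was called when the Benjamini-Hochberg adjusted p of edgeR's quasi-likelihood test over all 14810 genes was below 0.05 and the log2 fold change was beyond 0.25 in either direction.

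**Figure D1:**
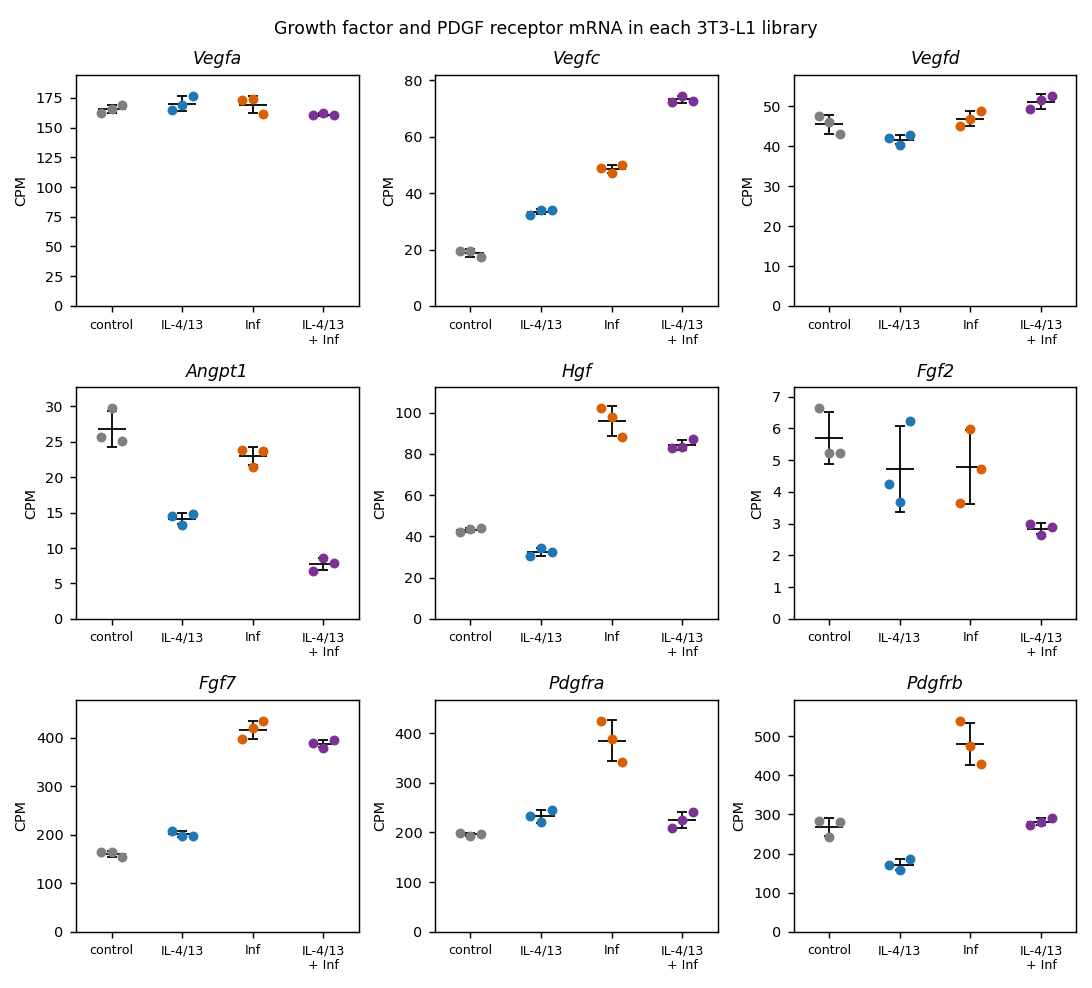
Level of each of the 9 genes in CPM (y axes, from 0) in every library, by condition (x axes); points are libraries, horizontal lines the mean and bars the SD of 3 libraries. Vegfc stepped up from control to IL-4/13 to Inf to IL-4/13 + Inf without overlap, Angpt1 was lowest with IL-4/13 + Inf, and the PDGF receptors peaked with Inf alone.

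For IL-4/13 against control, 2 of 9 genes were called up where 2.78% of all tested genes were, and 3 of 9 were called down where 2.57% were. Their median log2 fold change was −0.13, beside −0.0014 over all genes tested. For Inf against control, 5 of 9 were called up beside 16.3% of all genes and 0 of 9 down beside 15.3%. The median there was 0.84 beside 0.0073. The 0 down calls are from edgeR's quasi-likelihood test, DESeq2 also gave 0, and 1 gene, Angpt1, fell at an unadjusted p below 0.05.

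For IL-4/13 + Inf against control, 3 of 9 were called up beside 13.4% of all genes and 2 of 9 down beside 11.5%, with a median log2 fold change of 0.17 beside −0.00084. For IL-4/13 + Inf against Inf, which measures what IL-4/13 added to cells already given Inf, 1 of 9 was called up beside 7.55% of all genes and 4 of 9 down beside 7.00%, with a median of −0.19 beside −0.0098. The interaction, which is the log2 response to IL-4/13 with Inf minus that without Inf, was called negative in 3 of 9 beside 1.59% of all genes and positive in 0 of 9 beside 1.52%. Its median was −0.24 beside −7.3e-05 over all genes. DESeq2 also gave 0 positive calls, and 2 genes, Vegfd and Hgf, were positive at an unadjusted p below 0.05 in edgeR. The 3 comparisons against control share the control libraries, and both comparisons with Inf share the Inf libraries, so each comparison's own values are given and no overlap between them is drawn. The genes were picked by name with earlier results of these data known, and that choice may itself shape these shares. The shares describe the 9 genes and no wider class.

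**Figure D2:**
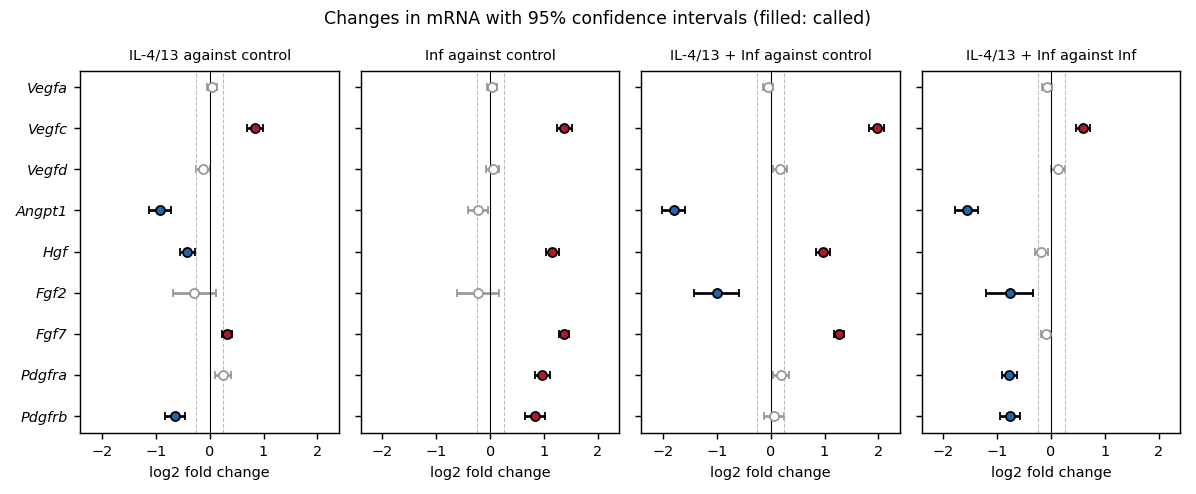
Log2 fold change (x axes) of the 9 genes (y axis) in 4 comparisons, with bars for the 95% confidence interval, filled points for called genes (red up, blue down) and dashed lines at ±0.25. The intervals of Vegfa hugged 0 in all 4 panels, and those of Fgf2, the gene with the fewest counts, were the widest.

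Vegfc was raised by either cytokine mixture and stood highest with both. It measured 19.5, 19.5 and 17.2 CPM in the control libraries, 32.4, 34.1 and 34.0 CPM with IL-4/13, 48.8, 47.1 and 49.9 CPM with Inf and 72.3, 74.7 and 72.9 CPM with IL-4/13 + Inf. No pair of conditions overlapped, and the order ran from control through IL-4/13 and Inf to IL-4/13 + Inf. The rise was 1.78-fold with IL-4/13 (log2 fold change 0.83, SE 0.072, adjusted p = 5.57e-10), 2.59-fold with Inf (log2 fold change 1.37, SE 0.069, adjusted p = 1.29e-16) and 3.91-fold with both (log2 fold change 1.97, SE 0.067, adjusted p = 6.67e-21). Added to Inf, IL-4/13 raised Vegfc 1.51-fold (log2 fold change 0.59, SE 0.061, adjusted p = 1.01e-08). The response to IL-4/13 was smaller on the log2 scale with Inf than without it, but this difference was not called (−0.24 on the log2 scale, SE 0.094, adjusted p = 0.19). In CPM the order was the other way, with a difference of 14.7 CPM without Inf and 24.7 CPM with it.

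Vegfa, the main angiogenic ligand of the family, stayed within a narrow range. It measured 162, 166 and 169 CPM in control, 165, 169 and 177 CPM with IL-4/13, 173, 174 and 161 CPM with Inf and 160.2, 162 and 161 CPM with IL-4/13 + Inf. The libraries of control, IL-4/13 and Inf overlapped, and those of IL-4/13 + Inf were tightly grouped at the low end, their highest at 161.95 CPM against a lowest control library of 162.05 CPM. The log2 fold changes were 0.038 with IL-4/13, 0.032 with Inf, −0.042 with both against control and −0.074 with both against Inf, with adjusted p of 0.71, 0.61, 0.54 and 0.27. Their 95% intervals together ran from −0.17 to 0.13, so a change of the size seen in Vegfc lay outside them. The Vegfc to Vegfa ratio of CPM within a library was 0.113 ± 0.010 in control, 0.197 ± 0.0049 with IL-4/13, 0.288 ± 0.020 with Inf and 0.455 ± 0.0052 with both (SD, n = 3), a description with no test.

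Vegfd, the other lymphatic ligand, also passed no call. Its libraries measured 47.6, 46.1 and 43.0 CPM in control, 42.0, 40.4 and 42.7 CPM with IL-4/13, 45.1, 46.9 and 48.8 CPM with Inf and 49.2, 51.7 and 52.7 CPM with IL-4/13 + Inf. The IL-4/13 libraries were all below and the IL-4/13 + Inf libraries all above the control libraries, while Inf and control overlapped. The log2 fold change with both against control was 0.17 (SE 0.062, adjusted p = 0.039), which is below the size required for a call, and it was −0.13 with IL-4/13 (adjusted p = 0.25). Set against Vegfc, its relative with the same main receptor, Vegfd moved by at most 0.17 on the log2 scale against control where Vegfc moved by 1.97.

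The receptors of these ligands were uneven, and for related genes the first value in parentheses is the log2 fold change. Kdr, which encodes VEGFR2, had at most 1 count in any library and Flt4, which encodes VEGFR3, had 0, so neither was tested. Of 3 tested receptors and co-receptors, 1 was called up with IL-4/13 alone, beside 2.78% of all genes. The median log2 fold change of the 3 was 0.060. Flt1, which encodes VEGFR1 and its soluble decoy form, rose with IL-4/13 from 18.8 ± 2.3 to 46.8 ± 0.75 CPM (1.32, SE 0.094, adjusted p = 1.35e-10), and with IL-4/13 added to Inf from 28.1 ± 3.9 to 73.4 ± 5.8 CPM (1.38, SE 0.086, adjusted p = 5.93e-12; SD, n = 3). The interaction for Flt1 was 0.061, SE 0.13, adjusted p = 0.89, which was not called. The co-receptor Nrp1 fell with Inf from 174 ± 9.4 to 34.5 ± 2.6 CPM (−2.33, SE 0.060, adjusted p = 3.95e-24), and Nrp2, a co-receptor for VEGF-C, rose from 231 ± 19 to 444 ± 59 CPM (0.94, SE 0.088, adjusted p = 4.12e-06). Nrp2 then fell when IL-4/13 was added to Inf (−0.33, SE 0.087, adjusted p = 0.020). Its interaction was not called by edgeR (−0.39, SE 0.12, adjusted p = 0.15) but was called by DESeq2 (−0.39, adjusted p = 0.0075). Of the other 2 ligands, Vegfb was called nowhere (0.19 with Inf), and Pgf, at 1.30 ± 0.34 CPM in control, fell with IL-4/13 + Inf against Inf (−1.35, SE 0.43, adjusted p = 0.022).

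Angpt1 fell with IL-4/13 in both settings, and by more when Inf was present. It measured 25.7, 29.7 and 25.1 CPM in control, 14.5, 13.2 and 14.8 CPM with IL-4/13, 23.8, 21.5 and 23.6 CPM with Inf and 6.79, 8.60 and 7.83 CPM with IL-4/13 + Inf. No pair of conditions overlapped, and control replicate 2 was the highest of the 12 libraries. IL-4/13 lowered Angpt1 1.89-fold (log2 fold change −0.92, SE 0.097, adjusted p = 3.56e-08), and IL-4/13 + Inf lowered it 3.48-fold against control (log2 fold change −1.80, SE 0.10, adjusted p = 3.88e-15) and 2.97-fold against Inf (log2 fold change −1.57, SE 0.11, adjusted p = 1.26e-12). Inf alone gave −0.23 on the log2 scale, SE 0.091, adjusted p = 0.046, short of the required size, and it became a call without control replicate 3 (−0.27, adjusted p = 0.037) or without Inf replicate 3 (−0.25, adjusted p = 0.046). It was smaller without control replicate 2 (−0.14, adjusted p = 0.28) and without Inf replicate 2 (−0.17, adjusted p = 0.19).

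The log2 response of Angpt1 to IL-4/13 was more negative with Inf than without (−0.65 on the log2 scale, SE 0.14, adjusted p = 0.0064). This call was lost by a small margin without IL-4/13 + Inf replicate 1, the library with the lowest Angpt1 (−0.55, adjusted p = 0.051). In CPM the difference was −12.7 without Inf and −15.2 with it. An antisense gene, Gm17473, shares 14.2% of the Angpt1 exon bases but had at most 1 count in any library.

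Because Vegfc and Angpt1 moved apart, their ratio within a library was also taken, a choice made after the values were seen. The ratio of Vegfc to Angpt1 CPM was 0.701 ± 0.052 in control, 2.37 ± 0.18 with IL-4/13, 2.12 ± 0.073 with Inf and 9.54 ± 1.00 with both (SD, n = 3). It was between 8.68 and 10.6 in the 3 libraries with both mixtures and at most 2.58 in every other library.

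**Figure D3:**
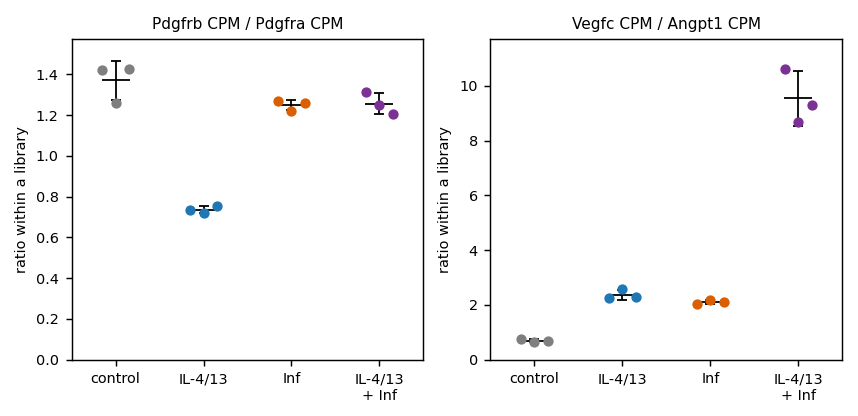
Ratio of CPM within each library (y axes, from 0) by condition (x axes), for Pdgfrb over Pdgfra on the left and Vegfc over Angpt1 on the right; points are libraries, lines the mean and bars the SD of 3. The receptor ratio was low only with IL-4/13 alone (0.721 to 0.753), and the ratio of Vegfc to Angpt1 reached 8.68 to 10.6 with IL-4/13 + Inf.

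Of 5 tested angiopoietins and angiopoietin-like genes, IL-4/13 raised Angptl2 (0.41, SE 0.042, adjusted p = 2.09e-08) and Angptl4 (0.58, SE 0.057, adjusted p = 1.05e-08), the latter an inhibitor of lipoprotein lipase, with a median log2 fold change over the 5 genes of −0.49. Angpt4 (−1.28, SE 0.38, adjusted p = 0.034) and Angptl6 (−0.60, SE 0.19, adjusted p = 0.048) were called down by edgeR, but DESeq2 called neither and gave Angpt4 no adjusted p. The rise of Angptl4 with IL-4/13 was seen only without Inf. Added to Inf, IL-4/13 gave −0.042 on the log2 scale, adjusted p = 0.62, and the interaction of Angptl4 was called (−0.62, SE 0.077, adjusted p = 2.57e-06). Inf alone raised Angptl4 (1.75, SE 0.055, adjusted p = 9.85e-22). Angpt2, the context-dependent antagonist of Angpt1, stood at 4.23 ± 0.17 CPM in control and was called down by edgeR when IL-4/13 was added to Inf (−0.55, SE 0.20, adjusted p = 0.046), but not by DESeq2 (adjusted p = 0.069). Angpt4 was called down by edgeR in all 4 comparisons of conditions, and by DESeq2 in the 3 other than IL-4/13 against control, with log2 fold changes of −1.28 with IL-4/13, −1.08 with Inf, −2.64 with both against control and −1.57 against Inf, but from a control level of only 1.70 ± 0.40 CPM. The receptors Tek (TIE2), with at most 12 counts, and Tie1, with at most 1, were not tested.

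Hgf responded in opposite directions to the mixtures, rising with Inf and falling with IL-4/13. It measured 42.2, 43.4 and 44.0 CPM in control, 30.5, 34.4 and 32.3 CPM with IL-4/13, 102, 98.1 and 88.0 CPM with Inf and 83.0, 83.2 and 87.3 CPM with IL-4/13 + Inf. The 4 conditions did not overlap, and Inf replicate 3 was the lowest of the Inf libraries. Inf raised Hgf 2.23-fold (log2 fold change 1.15, SE 0.062, adjusted p = 5.32e-16) and IL-4/13 lowered it 1.33-fold (log2 fold change −0.42, SE 0.067, adjusted p = 6.01e-05). With both, Hgf was 1.96-fold above control (log2 fold change 0.97, SE 0.062, adjusted p = 4.12e-14). For IL-4/13 + Inf against Inf the log2 fold change was −0.19 (SE 0.058, adjusted p = 0.020), below the size required, and −0.24 without Inf replicate 3. The interaction was not called (0.23 on the log2 scale, SE 0.089, adjusted p = 0.18).

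MET, the HGF receptor, and the urokinase Plau, a protease that can activate HGF, were the 2 tested genes of 8 in that list. Met fell with Inf from 110.2 ± 4.2 to 69.5 ± 4.7 CPM (−0.66, SE 0.057, adjusted p = 4.84e-11). With IL-4/13 the log2 fold change of Met was 0.13, which was not called. Plau rose with IL-4/13, from 19.3 ± 0.36 to 38.5 ± 2.4 CPM (1.00, SE 0.096, adjusted p = 5.46e-09), and fell with Inf to 6.76 ± 1.1 CPM (−1.49, SE 0.12, adjusted p = 4.21e-12). With both it stood at 18.2 ± 2.6 CPM, −0.087 against control on the log2 scale and 1.41 against Inf. A same-strand gene, Gm43489, shares 6.74% of Hgf exon bases, with at most 22 counts in any library.

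Fgf7 rose with each mixture and was the most abundant of the 9 genes per kilobase. It measured 165, 164 and 154 CPM in control, 208, 197 and 198 CPM with IL-4/13, 397, 419.6 and 434 CPM with Inf and 389, 380.3 and 396 CPM with IL-4/13 + Inf. Each condition was separate from the next, with Inf just above IL-4/13 + Inf. The rise was 1.25-fold with IL-4/13 (log2 fold change 0.32, SE 0.045, adjusted p = 7.08e-06), 2.59-fold with Inf (log2 fold change 1.37, SE 0.045, adjusted p = 2.10e-21) and 2.41-fold with both (log2 fold change 1.27, SE 0.045, adjusted p = 1.27e-20). Added to Inf, IL-4/13 gave −0.10 on the log2 scale, SE 0.043, adjusted p = 0.088, and the difference between these responses was called (−0.42 on the log2 scale, SE 0.062, adjusted p = 4.76e-05).

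Fgf2 was the scarcest of the 9, with 43 to 123 counts per library. It measured 6.63, 5.21 and 5.22 CPM in control, 4.23, 3.69 and 6.25 CPM with IL-4/13, 3.66, 5.99 and 4.73 CPM with Inf and 2.98, 2.64 and 2.90 CPM with IL-4/13 + Inf. The first 3 conditions overlapped, and all libraries with both mixtures were below them. Fgf2 was 2.00-fold lower with both than in control (log2 fold change −1.0, SE 0.21, adjusted p = 2.46e-04), whereas IL-4/13 alone gave −0.29 on the log2 scale, SE 0.20, adjusted p = 0.45 and Inf alone −0.23 on the log2 scale, SE 0.19, adjusted p = 0.36. Its fall against Inf (log2 fold change −0.77, SE 0.21, adjusted p = 0.0072) was lost without Inf replicate 2 (−0.56, adjusted p = 0.083), and its interaction was not called (−0.49 on the log2 scale, SE 0.29, adjusted p = 0.48). Nudt6 lies antisense to Fgf2 and shares 9.44% of its exon bases, with up to 52 counts in a library. The libraries were stranded, but how strand was used in counting is not given in the sources used here, so Fgf2 values are uncertain to that extent.

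Of 20 other FGF ligands, 16 were too scarce to test. Fgf10, which like Fgf7 signals to epithelium, rose with Inf from 45.5 ± 2.8 to 94.8 ± 3.8 CPM (1.06, SE 0.064, adjusted p = 1.25e-14) and fell with IL-4/13, both alone (−0.28, SE 0.069, adjusted p = 0.0079) and added to Inf (−0.60, SE 0.062, adjusted p = 1.20e-08), where Fgf7 rose with IL-4/13 alone. Its interaction was also called (−0.32, SE 0.093, adjusted p = 0.047). Fgf23, an endocrine regulator of phosphate, had at most 1 count in any control library, and reached 1.84 ± 0.33 CPM with Inf and 5.05 ± 0.84 CPM with both. Taking 3 counts per library as the limit of detection, this was at least 10.3-fold higher than control with Inf and at least 28.2-fold higher with both. The rise of Fgf23 from Inf to both was 1.44 on the log2 scale (SE 0.26, adjusted p = 1.07e-04). Fgf14 and Fgf21 were each below 2 CPM on average in every condition. With Inf, Fgf14 fell (−1.23, SE 0.35, adjusted p = 0.0057), as did Fgf21 (−2.55, SE 0.42, adjusted p = 1.01e-05). Fgf21 stood at 0.245 ± 0.046 CPM with Inf, near the limit of detection, so the size of its fall is uncertain.

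Among the FGF receptors and binding partners, 4 of 8 were tested. Fgfr1 was the most abundant, between 503 ± 26 and 529 ± 31 CPM on average across the 4 conditions, with log2 fold changes of −0.075, −0.024, −0.0067 and 0.017 and no call. Fgfr2, whose epithelial form binds FGF7, fell with IL-4/13 from 19.9 ± 0.68 to 12.7 ± 1.3 CPM (−0.64, SE 0.097, adjusted p = 2.64e-05) and again when IL-4/13 was added to Inf (−0.42, SE 0.097, adjusted p = 0.0017). The count table does not separate its isoforms. Fgfrl1, which lacks a kinase domain, fell with Inf (−0.61, SE 0.076, adjusted p = 8.71e-08), and Fgfr3 gave −0.34 on the log2 scale with Inf, which was not called.

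Both PDGF receptors rose with Inf and fell when IL-4/13 was added to Inf. Pdgfra measured 198, 193 and 197 CPM in control, 233, 220.2 and 246 CPM with IL-4/13, 424, 388 and 342 CPM with Inf and 209, 225 and 240.5 CPM with IL-4/13 + Inf. The Inf libraries stood above all others, and those with IL-4/13 overlapped those with both mixtures. Inf raised Pdgfra 1.96-fold (log2 fold change 0.97, SE 0.067, adjusted p = 1.28e-09), and adding IL-4/13 to Inf lowered it 1.71-fold (log2 fold change −0.78, SE 0.067, adjusted p = 1.21e-07).

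For IL-4/13 alone, the value of Pdgfra was positive. It was 0.248 on the log2 scale (SE 0.068, adjusted p = 0.030), just short of 0.25, and it was called without IL-4/13 replicate 2 (0.29, adjusted p = 0.022). Without IL-4/13 replicate 3 it was smaller (0.21, adjusted p = 0.11), and the adjusted p was 0.079 to 0.098 without any 1 control library, 0.097 without IL-4/13 replicate 1, 0.060 without Inf replicate 2 and 0.062 with the replicate block. The difference between the responses with and without Inf was the largest interaction of the 9 genes (−1.02 on the log2 scale, SE 0.095, adjusted p = 2.57e-06). Against control, IL-4/13 + Inf gave 0.19 on the log2 scale, SE 0.067, adjusted p = 0.034, which reached the required size without IL-4/13 + Inf replicate 1 (0.25, adjusted p = 0.0075). It was smaller without IL-4/13 + Inf replicate 3 (0.15, adjusted p = 0.13), and over all alternatives it ran from 0.15 to 0.25 with adjusted p from 5.18e-04 to 0.13, at 0.075 with library size alone and 0.061 with the replicate block. Inf replicate 3 had the lowest Pdgfra of its group, and without it the rise with Inf was 1.05 and the interaction −1.10 on the log2 scale.

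Pdgfrb fell with IL-4/13 whether or not Inf was present. It measured 282, 243 and 282 CPM in control, 171, 159 and 185 CPM with IL-4/13, 538, 474 and 430.1 CPM with Inf and 274, 281 and 290.1 CPM with IL-4/13 + Inf. The IL-4/13 libraries were the lowest and the Inf libraries the highest, and control and IL-4/13 + Inf overlapped. IL-4/13 lowered Pdgfrb 1.57-fold without Inf (log2 fold change −0.65, SE 0.087, adjusted p = 4.97e-04) and 1.71-fold with it (log2 fold change −0.77, SE 0.085, adjusted p = 3.84e-05), and Inf alone raised it 1.79-fold (log2 fold change 0.84, SE 0.085, adjusted p = 6.09e-06). The interaction was not called (−0.12 on the log2 scale, SE 0.12, adjusted p = 0.75), with a 95% interval of −0.39 to 0.14. IL-4/13 + Inf gave 0.066 on the log2 scale, SE 0.085, adjusted p = 0.62 against control, with an interval of −0.12 to 0.25. Inf replicate 3 was again the lowest of its group, and without it the rise with Inf was 0.91 and the fall from Inf −0.84 on the log2 scale. Pdgfrb is also a gene of mural cells. The 8 mural markers, with 3 tested and Kcnj8, Abcc9 and Higd1b at 3 counts or fewer, summed to 48.2 to 54.5 CPM in control, 56.5 to 61.7 with IL-4/13, 19.2 to 22.5 with Inf and 21.2 to 23.2 with both, led by Mcam, and their part in the result was not tested.

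The receptors were thus shifted against each other by IL-4/13 alone. The Pdgfrb to Pdgfra ratio of CPM within a library was 1.37 ± 0.096 in control, 0.737 ± 0.016 with IL-4/13, 1.25 ± 0.025 with Inf and 1.26 ± 0.053 with both (SD, n = 3). It was between 0.721 and 0.753 in the 3 IL-4/13 libraries and at least 1.21 in every other library, without a test.

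Of 4 tested PDGF ligands and relatives, Pdgfa, a ligand of PDGFRα, rose with Inf from 27.6 ± 0.93 to 48.4 ± 3.6 CPM (0.81, SE 0.070, adjusted p = 4.81e-11) and Pdgfc fell from 157 ± 6.2 to 82.4 ± 3.5 CPM (−0.93, SE 0.050, adjusted p = 6.21e-16). Pdgfrl, a PDGF receptor-like gene with no kinase domain, rose with Inf from 81.7 ± 3.4 to 818 ± 29 CPM (3.32, SE 0.047, adjusted p = 1.33e-30), and more modestly with IL-4/13 alone (0.37, SE 0.047, adjusted p = 1.76e-06). For IL-4/13 + Inf against Inf, 0 of the 4 were called by edgeR or DESeq2, beside 7.55% of all genes called up and 7.00% down by edgeR. With only 4 genes, 0 calls are near these shares and do not set the 4 apart. Of them, 2 had an unadjusted p below 0.05, 1 in each direction. Pdgfb, at 1.34 ± 0.53 CPM in control, was called nowhere, and Pdgfd had 0 counts.

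**Figure D4:**
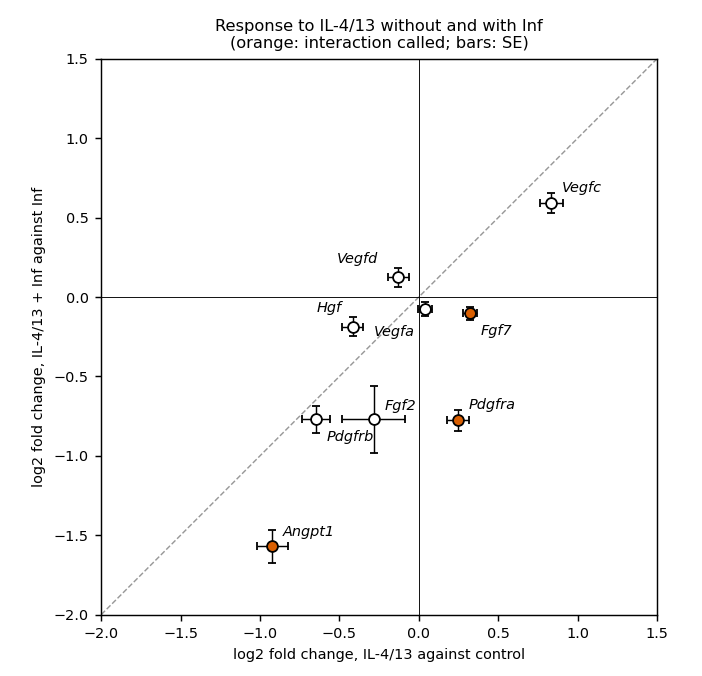
Log2 fold change of each gene for IL-4/13 against control (x axis) and for IL-4/13 + Inf against Inf (y axis), with SE bars; the dashed line marks equal responses and orange marks a called interaction. Pdgfra and Fgf7 lay right of 0 and below it, Angpt1 lay further below the line than its SE, and Pdgfrb lay close to the line.

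The plot of the response to IL-4/13 without and with Inf sets the 9 genes side by side. Vegfc was called up in both settings (0.83 and 0.59), and Angpt1 (−0.92 and −1.57) and Pdgfrb (−0.65 and −0.77) were called down in both. Fgf7 was called up only without Inf (0.32, against −0.10) with a called interaction, and Pdgfra was called down only with Inf (−0.78, against 0.25), also with a called interaction. Hgf, called down without Inf (−0.42, against −0.19), and Fgf2, called down with Inf (−0.77, against −0.29), had no called interaction, so their responses in the 2 settings were not shown to differ. The 95% interval of the difference was −0.24 to 0.019 for Vegfa and 0.069 to 0.43 for Vegfd, whose adjusted p was 0.13.

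Among 10 related neurotrophic ligands, 4 were tested. Bdnf fell with Inf from 64.3 ± 0.31 to 26.8 ± 0.75 CPM (−1.27, SE 0.068, adjusted p = 6.81e-16), and Gdnf rose from 11.2 ± 1.3 to 67.7 ± 1.6 CPM (2.60, SE 0.080, adjusted p = 5.57e-22). Gdnf then fell when IL-4/13 was added (−0.46, SE 0.067, adjusted p = 5.55e-06), with a called interaction (−0.58, SE 0.12, adjusted p = 0.0024). Ptn, which encodes the neurite-promoting heparin-binding factor pleiotrophin, was the most abundant at 835 ± 42 CPM in control and 327 ± 22 CPM with both (−1.35, SE 0.054, adjusted p = 5.36e-16). Among receptors, Ntrk2 had 0 counts. Ntrk3, the receptor of neurotrophin-3, fell with Inf from 5.31 ± 0.95 to 1.41 ± 0.20 CPM (−1.90, SE 0.24, adjusted p = 1.03e-07) and was higher when IL-4/13 was added (1.19, SE 0.25, adjusted p = 7.31e-04), the only positive interaction called among 42 tested related genes by edgeR (1.32, SE 0.32, adjusted p = 0.016) and given no adjusted p by DESeq2. Gfra1, a GDNF co-receptor, fell with Inf (−1.51, SE 0.24, adjusted p = 4.64e-06).

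In all, 85 related genes in 11 lists were looked up and 42 were tested. With IL-4/13 alone 5 rose and 7 fell (median log2 fold change −0.19), beside 2.78% and 2.57% of all genes tested. With Inf 16 rose and 14 fell (0.17), beside 16.3% and 15.3%. With both against control 14 rose and 17 fell (−0.075), beside 13.4% and 11.5%. With both against Inf 5 rose and 14 fell (−0.14), beside 7.55% and 7.00%. The interaction was called positive in 1 and negative in 5 (−0.0054), beside 1.52% and 1.59%. These counts are edgeR's, and DESeq2 called 0 positive and 6 negative interactions.

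**Figure D5:**
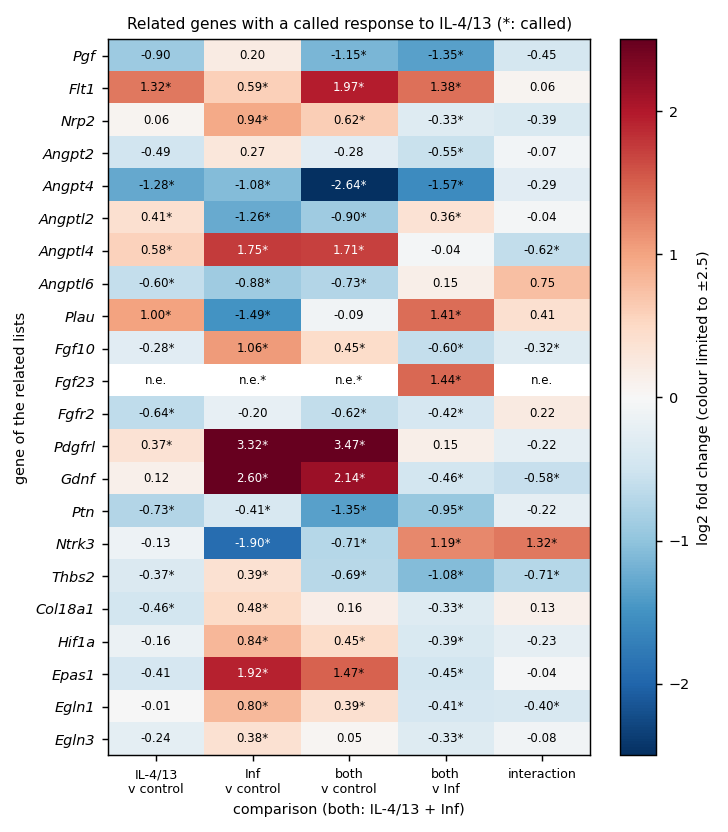
Log2 fold change (colour and printed value, colour limited to ±2.5) of the 22 related genes (rows) that were called for IL-4/13 against control, for IL-4/13 + Inf against Inf or for the interaction, in 5 comparisons (columns); an asterisk marks a call and n.e. a fold change not estimated because a group was at the limit of detection. Flt1 was red in the first 4 columns, Ptn and Angpt4 were blue in the first 4, and Plau changed direction between IL-4/13 and Inf.

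Levels were compared between genes per kilobase of the longest annotated transcript (GENCODE M21). In control, Fgf7 was highest at 60.2 ± 2.4 CPM per kilobase, followed by Pdgfrb at 49.6 ± 4.2, Vegfa at 48.0 ± 1.0, Pdgfra at 28.7 ± 0.44, Vegfd at 22.2 ± 1.2, Hgf at 12.4 ± 0.27, Vegfc at 7.66 ± 0.54, Angpt1 at 6.30 ± 0.59 and Fgf2 at 0.952 ± 0.14 (SD, n = 3). The libraries of Pdgfrb and Vegfa overlapped, those of Vegfc (7.03 to 7.98) and Angpt1 (5.89 to 6.97) were only just apart, and the other neighbours in this order were separate. With both mixtures, Fgf7 remained highest at 145 ± 2.9, Vegfc reached 29.9 ± 0.51 and passed Vegfd, whose highest library was at 25.7, and Hgf at 24.4 ± 0.70, and Angpt1 fell to 1.82 ± 0.21. The order depends on which transcripts the cells use: over all annotated exons together, Hgf in control came to 6.01 CPM per kilobase, below Vegfc.

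The genes whose pattern over the 12 libraries was most like each changing member were found by the smallest root mean square difference of mean-centred log2 CPM. This was done for the 5 members whose condition means spanned more than 1 on the log2 scale. For Vegfc, whose means spanned 1.96, they were Ifngr2 (0.13) and Xdh (0.13), and for Angpt1, which spanned 1.78, they were Ptn (0.24) and Tril (0.28). For Hgf, which spanned 1.56, they were Lama4 (0.12) and P4ha2 (0.12), and for Fgf7, which spanned 1.37, Fbxl5 (0.072) and Stom (0.083). Pdgfrb, which spanned 1.48, was most like Gpr153 (0.065) and Slit3 (0.12). Ptn, which also stands among the neurotrophic ligands, went from 835 CPM in control to 504 with IL-4/13, 629 with Inf and 327 with both, the same order of conditions as Angpt1 at a far higher level. Gpr153, an orphan receptor, stood at 41.8 CPM with IL-4/13, 122 with Inf and 68.4 with both.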

How the data were processed

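RNA was extracted and polyadenylated RNA was made into stranded libraries, and the authors deposited raw counts per gene, as whole numbers without normalization, for 12 libraries. The submitters' processing notes name STAR, featureCounts and GRCm39. Their versions, the annotation and the strand setting of the counting are not given in the sources used here. All libraries carry a single batch label.

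From these counts, low counts were removed with filterByExpr (at least 10 counts by condition, 15 in total) and TMM factors were computed. One robust quasi-likelihood model with a term per condition was fitted to all 12 libraries (R 4.3.3, edgeR 4.0.16, limma 3.58.1), with Benjamini-Hochberg adjustment over the 14810 genes of each contrast. The methods name DESeq2 for these libraries, which was used here as an alternative (1.42.0). The thresholds, 0.05 for the adjusted p and 0.25 for the log2 fold change, are those stated for the pseudobulk comparisons. The SE is the absolute log2 fold change divided by the square root of F. CPM were scaled to the effective library size. In a simulation that changed 200 genes by 1 on the log2 scale, 80.0% were recovered for IL-4/13 against control among 14534 genes, with 10 unchanged genes called, and 72.5% for the interaction among 14527, with 13.

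The 9 genes, the related lists and the marker lists were chosen with earlier results of these data known. Every member was named. Related genes were named where called in a response to IL-4/13 or in the interaction, or among up to 3 largest responses to Inf in their list. Results of a few related genes are not reported here, and the list counts were made without them. Similar genes were the 2 closest with at least 5 CPM in a condition. Alternatives were DESeq2, size factors from DESeq2, scaling by library size alone, all genes with a count, genes with a mean count of 50 or more, fits to the compared libraries only, a replicate block, leaving out each library, fold thresholds of 0 and 1, and an adjusted p threshold of 0.01. Replicate numbers showed no sign of pairing. Correlations of deviations between same-numbered libraries were −0.15 to 0.054 over 18 pairs, 0 of them above 0.1. Between libraries with different numbers they were −0.11 to 0.16 over 36 pairs, 4 of them above 0.1. With 3 libraries a condition, this cannot tell whether same-numbered libraries were handled together. Exon overlaps and transcript lengths came from GENCODE M21 (GRCm38), and promoters from RefSeq (GRCm38.p6). Sequences and plots were handled in Python 3.11.15 with numpy 2.4.6, pandas 2.3.3 and, for plots, matplotlib 3.10.9.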

Additional observations from a re-analysis of the deposited data

Results flagged for a closer look

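For 3 of the 9 genes, the response to IL-4/13 differed between cells without and with Inf. The test was that of the interaction itself in edgeR's quasi-likelihood fit, called negative in 1.59% of all genes and positive in 1.52%. The difference, as the log2 response with Inf minus that without, was −1.02 for Pdgfra (0.25 without and −0.78 with Inf, adjusted p = 2.57e-06). It was −0.65 for Angpt1 (−0.92 without and −1.57 with Inf, adjusted p = 0.0064), the one of the 3 whose call was lost when a library was left out. It was −0.42 for Fgf7 (0.32 without and −0.10 with Inf, adjusted p = 4.76e-05).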

How the results depend on the processing

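Of 845 fold changes of single members recomputed under an alternative, 0 changed direction, 2 fell short of a call made before and 7 became calls, each given with its gene above or here. Pdgfra for IL-4/13 against control became a call with library size alone (0.25) and with no filter on low counts (0.25), and Angpt1 for Inf against control with library size alone (−0.25). With library size alone, and with a fold threshold of 0, 1 member was called down for Inf against control in place of 0. The fold threshold of 0 also gave 5 members up for IL-4/13 + Inf against control in place of 3, adding Vegfd and Pdgfra. For IL-4/13 against control it gave 3 up in place of 2, adding Pdgfra, and for IL-4/13 + Inf against Inf 5 down in place of 4, adding Hgf. A fold threshold of 1 left 0 up and 0 down for IL-4/13 against control, 3 up for Inf against control (Vegfc, Hgf and Fgf7), 0 up and 1 down for IL-4/13 + Inf against Inf (Angpt1), and 1 negative interaction (Pdgfra). Leaving out 1 library at a time, the members called down for Inf against control numbered 0 to 1. With the replicate block, the members called were the same in every comparison, for example 2 up and 3 down for IL-4/13 against control. Same-numbered libraries showed no shared deviation, but this cannot tell whether they were handled together, so the block was kept as an alternative only. Depth limits Fgf2 most, with 43 to 123 counts per library, and receptors such as Kdr and Tek were too scarce to test.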

Other observations

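A list of 11 antiangiogenic and hypoxia regulators, all tested, was read beside the 9 genes. With Inf, 8 rose and 0 fell by edgeR's quasi-likelihood test, beside 16.3% and 15.3% of all genes, at a median log2 fold change of 0.40. DESeq2 also gave 0 falls, and 1 gene, Serpinf1, fell at an unadjusted p below 0.05 in edgeR. Its fall with Inf was below the size required but firm (−0.22, SE 0.038, adjusted p = 2.54e-05). With both against control Serpinf1 was called down (−0.31, SE 0.038, adjusted p = 5.11e-08). Hif1a, the oxygen-regulated transcription factor subunit, rose from 397 ± 21 to 709 ± 15 CPM (log2 fold change 0.84, SE 0.043, adjusted p = 2.15e-16), its paralog Epas1 from 5.24 ± 0.38 CPM in control by 1.92 on the log2 scale, and Egln1, a prolyl hydroxylase that marks both for degradation, from 94.7 ± 3.6 to 165 ± 6.5 CPM (0.80, SE 0.048, adjusted p = 8.94e-15). Vegfa, a textbook target of these factors, had a log2 fold change of 0.032 in the same comparison. These are mRNA levels, and the activity of the factors and its link to Vegfa were not tested. For IL-4/13 + Inf against Inf, 6 of the 11 fell beside 7.00% of all genes, at a median of −0.33, and 0 rose by edgeR or DESeq2, with 2 higher at an unadjusted p below 0.05. The falls included Hif1a (−0.39, SE 0.043, adjusted p = 3.99e-08), Epas1 (−0.45, SE 0.12, adjusted p = 0.0067), Egln1 (−0.41, SE 0.047, adjusted p = 8.90e-08) and Egln3 (−0.33, SE 0.073, adjusted p = 0.0013). The interaction of Egln1 was also called (−0.40, SE 0.068, adjusted p = 3.11e-04).

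The thrombospondins, secreted inhibitors of angiogenesis, both rose with Inf. Thbs1 rose with Inf from 821 ± 48 to 2172 ± 226 CPM (1.40, SE 0.066, adjusted p = 2.13e-10) and stood at 2419 ± 64 CPM with both, where the step from Inf was not called (0.16, SE 0.064, adjusted p = 0.10). Thbs2 rose with Inf from 314 ± 12 to 411 ± 41 CPM (0.39, SE 0.054, adjusted p = 1.58e-06), fell with IL-4/13 alone (−0.37, SE 0.055, adjusted p = 3.38e-05) and fell by more when IL-4/13 was added to Inf, to 194 ± 2.9 CPM (−1.08, SE 0.055, adjusted p = 8.54e-14), with a called interaction (−0.71, SE 0.077, adjusted p = 1.52e-06). Col18a1, whose protein is cleaved to endostatin, fell with IL-4/13 from 289 ± 15 to 210.4 ± 3.4 CPM (−0.46, SE 0.050, adjusted p = 1.18e-07) and rose with Inf (0.48, SE 0.049, adjusted p = 2.15e-09).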
